A study of Mus musculus with 8 samples.

Results

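The genotype by cryolesion interaction asks whether the transcriptional response to a cortical freeze injury differed between mice that lack microglial Il6 and floxed mice. It was estimated from 8 arrays as a difference of differences: Il6-deficient minus floxed among cryolesioned animals, less the same difference among control animals. Of the 8 arrays on which the fit ran, 4 carry weight in this contrast and the other 4 only inform the spread and the dye effect. RNA was extracted from right fronto-parietal cortex of 16 mice in 4 groups of 4 animals: cryolesioned animals with microglia-derived Il6 deficiency, cryolesioned floxed animals, control animals with microglia-derived Il6 deficiency and control floxed animals. For all groups the ipsilateral cortex was dissected, and the labels give no age, no time after injury, no Cre driver and no deleted part of Il6. A positive interaction means that a gene ended relatively higher in Il6-deficient than in floxed animals after cryolesion, compared with the genotype difference among controls.

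Interleukin-6 is a secreted cytokine that binds its receptor Il6ra and signals through the shared subunit Il6st (gp130). Janus kinases then phosphorylate Stat3, which enters the nucleus and turns on genes that include the feedback inhibitor Socs3. In injured cortex the cytokine comes from microglia, astrocytes, neurons and infiltrating cells, and it is known for its part in astrocyte reactivity and leukocyte recruitment.

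Each array held 2 different animals, 1 in Cy5 and 1 in Cy3. The 2 lesion-side arrays set Il6-deficient cryolesioned animals 1 and 2 against floxed cryolesioned animals 3 and 4, in opposite dyes. The 2 control-side arrays set Il6-deficient controls 1 and 2 against floxed controls 1 and 2. In the loop fit each of these 4 arrays has a weight of 0.5 or -0.5 in the interaction and the others have a weight of 0, so 2 animals of each group carry the estimate. The interaction of a gene is thus the mean log2 ratio of Il6-deficient over floxed on the lesion side minus that on the control side. Per channel, 59.2% to 65.9% of probes stood well above background, and 0 spots were saturated. The labels call the animals of a group biological replicates. All arrays came from 1 slide and 1 scan. Xist, the RNA that silences an X chromosome in female cells, was detected above background in 0 of 4 Il6-deficient cryolesioned, 0 of 4 floxed cryolesioned, 1 of 4 Il6-deficient control and 3 of 4 floxed control animals. Both control-side arrays paired a male with a female, with the genotypes opposite between the arrays, so Xist had a ratio of -1.07 on 1 array and 1.17 on the other and an interaction of 0.05 ± 0.82 (SE). Sex therefore cancels in the control-side mean and widens its spread. The cryolesion values lack this balance. All cryolesioned animals were male, and floxed controls 3 and 4, which shared arrays with cryolesioned animals, were both female. The mean cryolesion change was -0.79 for Xist and 1.58 for the Y-linked Eif2s3y, neither called. In the cryolesion values sex and cryolesion thus cannot be fully told apart. In whole cortex, fewer cells of a type and less RNA per cell cannot be told apart.

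The promoters of 3 genes named below are shown first, from RefSeq (GRCm38.p6), as the 250 bases before the annotated start. Il6 is the targeted gene, Socs3 is the textbook feedback target of Stat3, and Nr4a1 had the second lowest interaction of all named genes. Capitals in Socs3 mark the STAT motif TTCNNNGAA, and capitals in Il6 and Nr4a1 mark TGACG on either strand, the core of the cAMP response element.
Il6, chr5:30012864-30013113, plus strand: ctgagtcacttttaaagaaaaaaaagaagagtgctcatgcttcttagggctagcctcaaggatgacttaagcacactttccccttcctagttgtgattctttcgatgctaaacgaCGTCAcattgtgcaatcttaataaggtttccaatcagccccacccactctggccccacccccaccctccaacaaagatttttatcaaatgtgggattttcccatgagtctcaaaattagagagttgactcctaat
Socs3, chr11:117969367-117969616, minus strand: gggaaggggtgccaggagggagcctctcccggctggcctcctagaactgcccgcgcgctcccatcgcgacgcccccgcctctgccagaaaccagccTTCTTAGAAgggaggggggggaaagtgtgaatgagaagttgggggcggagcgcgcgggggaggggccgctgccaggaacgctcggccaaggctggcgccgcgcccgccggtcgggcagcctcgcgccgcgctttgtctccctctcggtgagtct
Nr4a1, chr15:101266596-101266845, plus strand: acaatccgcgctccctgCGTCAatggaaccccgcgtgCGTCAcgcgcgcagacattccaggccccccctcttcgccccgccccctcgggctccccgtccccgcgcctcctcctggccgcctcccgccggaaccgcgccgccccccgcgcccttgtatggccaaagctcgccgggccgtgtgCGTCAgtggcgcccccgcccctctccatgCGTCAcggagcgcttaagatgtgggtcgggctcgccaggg
The STAT motif occurred once in the Socs3 window, beginning 154 bases before the start, and in 7.02% of 32851 such windows. TGACG occurred 4 times in the Nr4a1 window, beginning 233, 213, 69 and 40 bases before the start, and once in the Il6 window, 135 bases before it. At least 1 TGACG was present in 17.8% of all windows and at least 4 in 0.137%. A match describes the letters only, and the 2 motifs do not overlap. A relation between matches and the interaction was not tested.

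Il6 itself lay near the detection limit. Its brighter probe read 6.14, 6.20, 6.01 and 6.15 log2 intensity in Il6-deficient cryolesioned animals and 6.40, 6.83, 6.20 and 6.57 in floxed cryolesioned animals. Among controls the same probe read 5.86, 5.99, 5.96 and 5.78 in Il6-deficient animals and 5.86, 5.93, 6.003 and 5.89 in floxed animals. It was well above background in 3 of 16 channels, all of them floxed cryolesioned animals, and the control groups overlapped throughout. On the arrays that carry the contrast, the Il6 ratio of Il6-deficient over floxed was -0.04 and -0.38 on the lesion side and 0.02 and 0.05 on the control side. The fitted interaction was -0.24 ± 0.25 (SE; 95% interval -0.85 to 0.36) and did not pass the test. Taken over the levels of all 16 animals, the interaction of Il6 was -0.35, and an exact two-sided permutation test over 4900 relabelings gave p = 0.0718. The relabelings shuffled genotype within each state and did not keep the pairing of animals on arrays. The dimmer Il6 probe, well above background in 1 channel, had an interaction of 0.03 ± 0.15 (SE). Il6 did not pass the filter on dim probes, which required 4 of 16 channels, so it is outside the genome-wide test.

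Across 29362 features, of which 16852 are named genes, 0 were called for the interaction in limma at a Benjamini-Hochberg adjusted p under 0.05 (0% of features), and the lowest adjusted p was 1.00. At an unadjusted p under 0.05 the interaction of 972 features passed (3.31%), 442 higher (1.51%) and 530 lower (1.81%). At an unadjusted p under 0.01 it was 155 (0.528%), 52 higher (0.177%) and 103 lower (0.351%), a smaller share than the threshold itself passes on average when nothing differs. The same fit called 3492 features (11.9%) for the cryolesion as the mean of both genotypes, 1768 higher (6.02%) and 1724 lower (5.87%), and 803 (2.73%) and 896 (3.05%) for the cryolesion within Il6-deficient and within floxed animals. It called 0 for genotype among cryolesioned animals (0%), 0 for genotype among controls (0%) and 1, Cx3cr1, for genotype as the mean of both states (0.00341%). The cryolesion calls set male animals against controls of both sexes.

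The precision of the estimate was limited, with 2 arrays on each side of the contrast. The median SE of the interaction was 0.175 log2 units and its 95% interval reached a median of 0.414 to either side. For 25957 features (88.4%) the interval lay within 1 log2 unit of 0, so a 2-fold difference in response lay outside it in this fit. These widths hold for the background handling used here. The median SE was 0.231 with a smaller normexp offset (16), 0.208 without background subtraction and 0.346 with the scanner software's processed signals. Without the filter on dim probes it was 0.115. Among the 3492 features called for the mean cryolesion change, the interval lay within 1 log2 unit for 3022 (86.5%), and their median interaction was -0.0006 against 0.0064 over all features. The 475 that changed at least 2-fold were measured less tightly: the interval lay within those bounds for 230 (48.4%), and the median SE was 0.328. Of the 3492, 6.67% passed an unadjusted p under 0.05 for the interaction in limma, beside 3.31% of all features and 2.95% of the 475. The call for the mean cryolesion change and the interaction use the same estimate of a feature's spread. The part of that shared estimate in these shares was not tested.

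**Figure D1:**
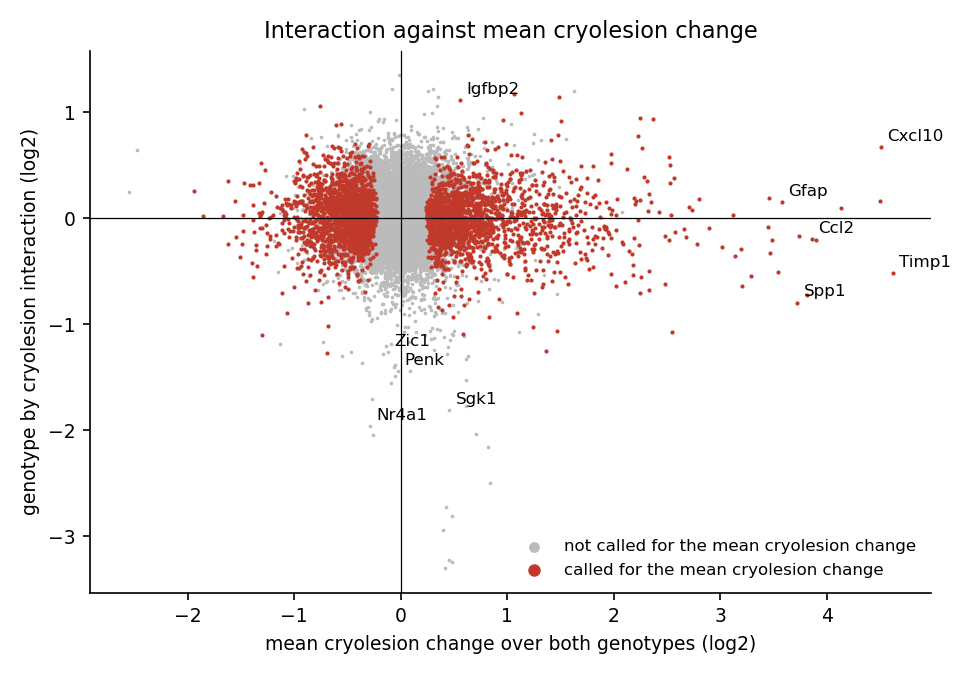
Interaction (vertical axis, log2) against the mean cryolesion change over both genotypes (horizontal axis, log2) for all 29362 features; red points are the 3492 called for the mean cryolesion change. Among the strongest responders, Ccl12 has an interaction of 0.16 and Timp1 of -0.52, and the lowest labelled interactions, Nr4a1 (-1.96) and Sgk1 (-1.81), belong to genes not called for the mean change.

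Of the 10 genes that the cryolesion raised most as the mean of both genotypes, 9 were called in each genotype and 0 for the interaction. The exception was Spp1, which rose by 4.12 log2 units in floxed animals and was called there (adjusted p = 0.0321, limma). In Il6-deficient animals Spp1 rose by 3.33 and was not called (adjusted p = 0.0626, limma). The cryolesion values of the 2 genotypes share all 8 arrays, since no array paired a cryolesioned with a control animal of the same genotype. Ccl12, a chemokine for monocytes, rose by 4.58 ± 0.16 log2 units (SE) in Il6-deficient and 4.42 ± 0.16 in floxed animals (adjusted p = 0.000269 and 0.000268, limma), and its interaction was 0.16 ± 0.23. Ccl2, the main monocyte-recruiting chemokine, rose by 3.76 ± 0.12 and 3.96 ± 0.12, with an interaction of -0.20 ± 0.17 (95% interval -0.61 to 0.21). In this fit both intervals lay within 1 log2 unit of 0, but the separate-channel fit described below gave -0.73 for Ccl2 and 0.16 for Ccl12.

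Timp1, an inhibitor of matrix metalloproteinases and a known Stat3 target, had the largest mean rise. Its log2 intensity was 12.08, 11.65, 11.31 and 11.92 in Il6-deficient cryolesioned animals and 12.58, 13.80, 11.99 and 12.64 in floxed cryolesioned animals. In controls it was 7.33, 7.17, 7.83 and 8.44 in Il6-deficient animals and 7.21, 7.13, 7.25 and 7.60 in floxed animals. Cryolesioned and control animals were far apart in both genotypes, and within each state the genotypes overlapped. Timp1 rose by 4.36 ± 0.26 in Il6-deficient and 4.88 ± 0.26 in floxed animals (SE; adjusted p = 0.00206 and 0.00155, limma). The interaction was -0.52 ± 0.37 (95% interval -1.39 to 0.35), and on the lesion-side arrays the ratio of Il6-deficient over floxed was 0.00 on 1 array and -0.88 on the other.

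Among the other leading rises, Gfap, the intermediate filament of astrocytes, had an interaction of 0.15 ± 0.36 on rises of 3.65 and 3.50 log2 units in Il6-deficient and floxed animals. Tgm1, a transglutaminase, had -0.20 ± 0.24, Tubb6, a beta-tubulin, 0.09 ± 0.45, and Ccl4, another chemokine, -0.17 ± 0.53. In the separate-channel fit Gfap turned to -0.30 and Tubb6 to -0.82, and Ccl4 had -0.89 and Tgm1 -0.54. The intervals of Ccl4, Cxcl10 and Spp1 reached past 1 log2 unit on both sides, and that of Hmox1 on the lower side: Cxcl10, an interferon-induced chemokine, had 0.67 ± 1.10, Hmox1, which degrades heme, -0.72 ± 0.68, and Spp1 (osteopontin), a product of activated phagocytes, -0.80 ± 0.99. Spp1 ranged from 9.89 to 13.54 log2 intensity among floxed cryolesioned animals, against 9.78 to 10.48 in Il6-deficient cryolesioned animals. The 5 leading falls also showed no call. Frzb, a secreted Wnt antagonist, fell by 1.85 in Il6-deficient and by 1.87 in floxed animals, with an interaction of 0.02 ± 0.26, and Camkk2, a calcium-dependent kinase, fell by 1.66 and by 1.68 with 0.02 ± 0.28. Plk5 had an interaction of 0.26 ± 0.60, Btbd17 0.35 ± 0.58 and Ddit4l -0.24 ± 0.42.

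**Figure D2:**
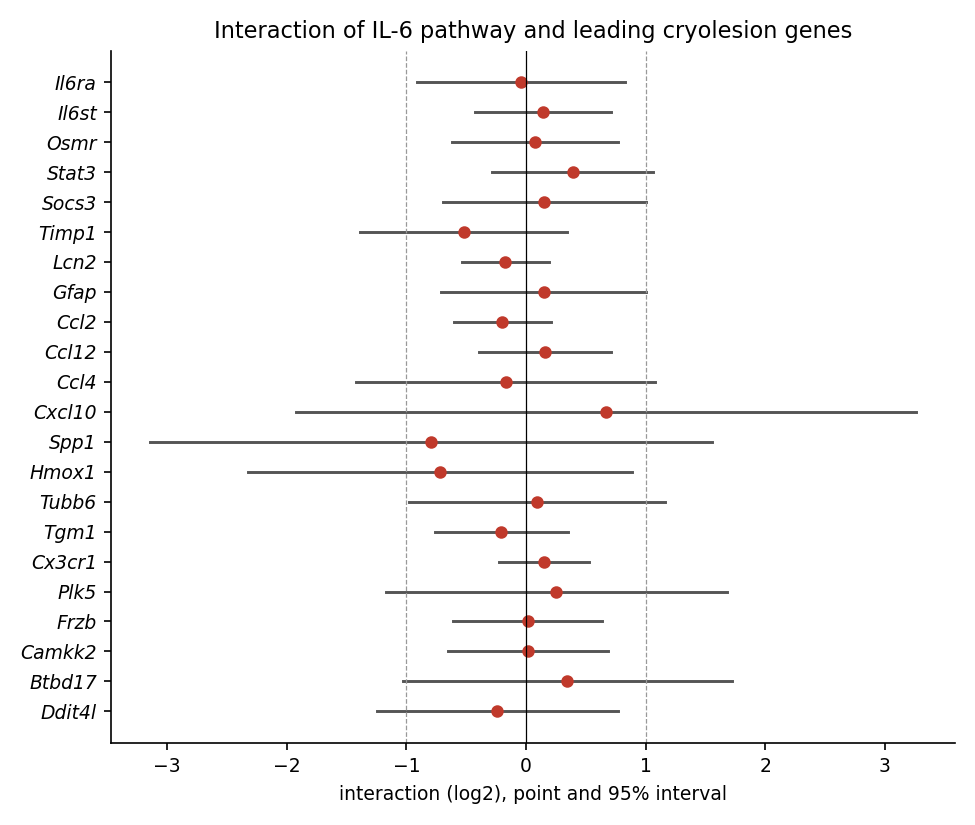
Interaction with its 95% interval (log2, limma, 8 arrays) for genes of the IL-6 pathway, the leading cryolesion rises and falls, and Cx3cr1; dashed lines mark 1 log2 unit on either side of 0. Every interval shown includes 0, those of Ccl2, Lcn2, Ccl12 and Cx3cr1 are among those within the dashed lines, and those of Cxcl10 and Spp1 span more than 4 log2 units.

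Of the IL-6 pathway, the receptor Il6ra had an interaction of -0.04 ± 0.37 and the signalling subunit Il6st 0.14 ± 0.24. Osmr, which pairs with Il6st to bind oncostatin M, rose by 2.77 ± 0.21 in Il6-deficient and 2.69 ± 0.21 in floxed animals (SE; adjusted p = 0.00395 and 0.00371, limma), and its interaction was 0.08 ± 0.29. Stat3, the main transcription factor of the pathway, rose by 1.77 ± 0.20 and 1.38 ± 0.20 in the same order (adjusted p = 0.0113 and 0.0213), with an interaction of 0.39 ± 0.28. Its second probe gave 0.06, and the separate-channel fit turned the sign of both genes, to -0.26 for Osmr and -0.03 for Stat3. Socs3 rose by 2.00 ± 0.25 and 1.85 ± 0.25 (adjusted p = 0.0159 and 0.018), with an interaction of 0.15 ± 0.36.

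Counted over lists, 0 of 9 tested IL-6 family cytokines, 0 of 7 receptors and 0 of 21 JAK, STAT and SOCS genes were called, and 0 passed an unadjusted p under 0.01 in any of these lists. Their median interactions were -0.08, 0.08 and 0.11, beside 0.0064 over all features. Among the cytokines Il11 was lowest at -0.51 ± 0.53 and Osm, oncostatin M, highest at 0.11. Among the receptors Il11ra1 was lowest at -0.40 and Lifr, the leukemia inhibitory factor receptor, highest at 0.19. Cish, a feedback inhibitor of Stat5, was lowest of the JAK, STAT and SOCS genes at -0.42, and Stat4 highest at 0.40. Of 24 tested genes known to respond to Stat3, 17 lay below 0 with a median of -0.18, and 0 were called. Of all features 51.5% lay above 0. The median of this list was -0.36 in the separate-channel fit, and leaving out 1 array at a time gave -0.69 to 0.006. Saa3, an acute-phase protein, was the lowest of these 24 genes at -1.07 ± 0.33, with lesion-side ratios of -0.95 and -1.18 and control-side ratios of 0.15 and -0.14. In controls Saa3 lay near the detection limit, well above background in 1 of 4 Il6-deficient and 2 of 4 floxed animals. Its interaction was -0.66 in the separate-channel fit and -0.55 by group mean levels. Lcn2, an iron-binding acute-phase protein, had -0.17 ± 0.15 (95% interval -0.54 to 0.19) and -0.50 by its second probe, and Serpina3n, a serpin of reactive astrocytes, -0.64 ± 0.41.

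The estimate through the 4 arrays and one over the levels of all 16 animals differed for several of these genes. Group mean levels gave an interaction of -0.87 for Ccl2, -1.40 for Timp1, -1.20 for Socs3, -1.17 for Lcn2, -1.78 for Serpina3n and -1.42 for Il11, all more negative than the loop estimate. For the 10 leading genes on each side, described below, group mean levels gave values nearer 0 than the loop estimate. A fit of all 16 channels as separate measurements in limma gave -1.21 for Timp1, -0.91 for Socs3, -0.95 for Lcn2, -1.54 for Serpina3n and -1.22 for Il11, and called 0 features. Controls hybridised together with a cryolesioned animal read higher for some of the same genes than controls hybridised with another control: 8.64 against 6.70 log2 intensity for Lcn2, 7.67 against 6.21 for Ccl2 and 9.52 against 8.32 for Socs3. The part of this difference in the level-based values was not tested.

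Cx3cr1, the fractalkine receptor that marks microglia, showed a genotype difference in both states, and its interaction was not called. Its log2 intensity was 11.52, 11.30, 11.30 and 11.66 in Il6-deficient cryolesioned animals and 12.19, 12.14, 12.18 and 12.48 in floxed cryolesioned animals. In controls it was 11.02, 10.68, 10.84 and 11.05 in Il6-deficient animals and 11.77, 12.07, 12.15 and 11.82 in floxed animals. All 8 Il6-deficient animals were below all 8 floxed animals. The ratio of Il6-deficient over floxed was -0.93 and -0.92 on the lesion side and -1.02 and -1.13 on the control side. As the mean of both states Cx3cr1 fell by 0.93 ± 0.06 log2 units (SE; adjusted p = 0.023, limma), whereas its interaction was 0.15 ± 0.16 with a 95% interval from -0.23 to 0.53. Its second probe had an interaction of 0.34.

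The 10 named genes with the smallest unadjusted p on each side, none of them called, are described next. The list of excitatory and pan-neuronal genes had a median of 0.06, with 17 of 28 above 0, and that of inhibitory neurons -0.07; the separate-channel fit gave -0.03 and -0.01. Dlgap3, a scaffold of the postsynaptic density, read 14.46, 14.59, 14.00 and 14.06 log2 intensity in Il6-deficient cryolesioned animals and 14.08, 13.87, 13.82 and 14.02 in floxed cryolesioned animals. In controls it read 14.34, 14.56, 14.61 and 14.81 in Il6-deficient animals and 14.47, 15.01, 14.47 and 14.37 in floxed animals. The 2 Il6-deficient cryolesioned animals on the lesion-side arrays, 1 and 2, stood above the other cryolesioned animals, and animals 3 and 4 overlapped the floxed group. The ratio of Il6-deficient over floxed was 0.51 and 0.68 on the lesion side and -0.25 and -0.33 on the control side, which gave an interaction of 0.89 ± 0.13 (SE). The cryolesion change of Dlgap3 was -0.12 ± 0.09 in Il6-deficient animals and -1.01 ± 0.09 in floxed animals. The separate-channel fit gave an interaction of 0.45 for Dlgap3, and group mean levels gave 0.33.

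Igfbp2, a binding protein for insulin-like growth factors, read 11.22, 10.78, 10.84 and 10.67 log2 intensity in Il6-deficient cryolesioned animals and 11.04, 10.65, 10.37 and 10.73 in floxed cryolesioned animals. In controls it read 9.75, 9.88, 9.92 and 10.48 in Il6-deficient animals and 10.26, 10.69, 10.58 and 9.99 in floxed animals. The groups overlapped within each state, with the lowest values in 3 of the Il6-deficient controls. Its interaction was 1.11 ± 0.18, from ratios of 0.54 and 0.36 on the lesion side and -0.82 and -0.50 on the control side. It rose by 1.11 ± 0.13 in Il6-deficient animals (adjusted p = 0.0124, limma) and changed by 0.00 ± 0.13 in floxed animals (adjusted p = 0.994); the 2 calls do not test the difference, which the interaction does. The separate-channel fit gave 0.67 for Igfbp2.

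Others on the higher side were Trank1 (0.98 ± 0.15; 0.65 by its second probe), Grik5, a kainate receptor subunit (0.79 ± 0.14), Rasl10a (0.78 ± 0.15), Ppp1r9b (spinophilin, a dendritic spine protein, 0.70), Reep6 (0.70), Slc27a1 (a fatty acid transporter, 0.68), Rundc3a (0.59) and Snph (syntaphilin, an anchor of axonal mitochondria, 0.58). The second probe of Grik5 gave 0.01, so its value rests on 1 probe. In the separate-channel fit these 8 genes had values between 0.10 (Rundc3a) and 0.64 (Rasl10a), all still above 0. Group mean levels gave values between -0.03 (Rundc3a) and 0.61 (Rasl10a), with 0.21 for Trank1 and 0.09 for Slc27a1, so Rundc3a turned sign by levels.

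On the lower side the leading genes were Zic1, Zfp189, Tssk5, 9430078K24Rik, Otog, Sgk1, Zfp281, Oxsm, Slc43a3 and Dennd1b, with interactions from -1.81 (Sgk1) to -0.63 (Dennd1b). Sgk1, a kinase induced by glucocorticoids and by injury, read 11.10, 10.85, 11.29 and 12.14 log2 intensity in Il6-deficient cryolesioned animals and 12.58, 11.91, 12.40 and 11.83 in floxed cryolesioned animals. In controls it read 12.25, 11.49, 11.22 and 11.84 in Il6-deficient animals and 11.68, 10.71, 11.31 and 11.73 in floxed animals. After cryolesion 3 of 4 Il6-deficient animals were below all 4 floxed animals, and in controls the genotypes overlapped. The Sgk1 ratio of Il6-deficient over floxed was -1.45 and -0.83 on the lesion side and 0.43 and 0.93 on the control side, and the interaction was -1.81 ± 0.36 (SE; 95% interval -2.67 to -0.96). Sgk1 rose by 1.36 ± 0.26 in floxed animals (adjusted p = 0.042, limma) and its change in Il6-deficient animals was -0.45 ± 0.26 (adjusted p = 0.394). The interaction is the difference of these 2 values, so a gene chosen for its interaction shows them apart. The 2 results do not test that difference. Group mean levels in cryolesioned and control animals were 12.18 and 11.35 (floxed) and 11.35 and 11.70 (Il6-deficient). The separate-channel fit gave an interaction of -1.31 and group mean levels -1.18.

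Zic1, a transcription factor of the dorsal neural tube and meninges, had an interaction of -1.26 ± 0.22, from ratios of -0.59 and -0.63 on the lesion side and 0.85 and 0.45 on the control side. Its level in Il6-deficient control 1 was 10.97, above 8.95 to 9.24 in the other 3 animals of that group. In the separate-channel fit Zic1 had an interaction of -0.40, and by group mean levels -0.16. Zfp189, a zinc finger gene, had -0.94 ± 0.17, with -0.54 and -0.26 on the lesion side and 0.62 and 0.46 on the control side. Oxsm, a mitochondrial fatty acid synthase enzyme, had -0.87 ± 0.18 by 1 probe and 0.02 by the other, and Dennd1b -0.63 by 1 probe and -0.04 by the other.

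Immediate early genes, which neurons and glia switch on within minutes of stimulation, held 4 of the members that passed an unadjusted p under 0.01. All 30 genes of the list were tested, 0 were called, 4 passed that threshold in the lower direction (0.351% of all features did) and 0 in the higher direction. Nr4a1, an orphan nuclear receptor induced by calcium and cAMP signals, read 11.18, 11.14, 13.08 and 11.16 log2 intensity in Il6-deficient cryolesioned animals and 12.06, 11.87, 12.84 and 12.07 in floxed cryolesioned animals. In controls it read 13.49, 14.36, 12.27 and 12.64 in Il6-deficient animals and 13.41, 13.11, 12.49 and 11.91 in floxed animals. The genotypes overlapped within each state, through Il6-deficient cryolesioned animal 3 and through the spread of the controls. Its ratios were -1.33 and -1.27 on the lesion side and 0.41 and 0.92 on the control side, and its interaction was -1.96 ± 0.50 (SE; 95% interval -3.15 to -0.77).

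Egr1, a zinc finger transcription factor, had an interaction of -1.27 ± 0.36, from ratios of -0.23 and -0.46 on the lesion side and 0.62 and 1.23 on the control side. Arc, which regulates receptor traffic at active synapses, had -1.02 ± 0.28, from -0.98 and -0.98 on the lesion side and -0.09 and 0.18 on the control side. Its log2 intensity varied widely between animals and the genotypes overlapped within each state. It ranged from 11.40 to 12.97 in Il6-deficient and 12.69 to 13.93 in floxed cryolesioned animals. Among controls the ranges were 11.45 to 13.97 in Il6-deficient and 11.27 to 13.63 in floxed animals. Dusp6, a phosphatase that switches off ERK kinases, had -0.88 ± 0.25, from -0.27 and -0.28 on the lesion side and 0.44 and 0.77 on the control side. For Nr4a1, Egr1 and Dusp6 the ratio was thus negative on both lesion-side arrays and positive on both control-side arrays, and for Arc it was near 0 on the control side. In all 30 genes the lesion-side ratios lay wholly below the control-side ratios for 13 and wholly above for 3, beside 18.7% and 20.2% of all features and 38.9% for both directions; 23 lay below 0 and the median was -0.18. Among those 13, chosen after their values were seen, Egr2 had -1.68, Egr4 -1.30 and Fos -1.07, whereas Jun, a partner of Fos, was the highest of the list at 0.74 ± 0.51. Jun turned sign in the separate-channel fit, to -0.13, whereas Nr4a1 had -1.23, Arc -1.19, Egr1 -0.83 and Dusp6 -0.65. The summed level of the list ranged from 15.86 to 16.41 in Il6-deficient cryolesioned, 16.14 to 16.67 in floxed cryolesioned, 16.23 to 17.14 in Il6-deficient control and 16.19 to 16.49 in floxed control animals on the log2 scale, so the groups overlapped.

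**Figure D3:**
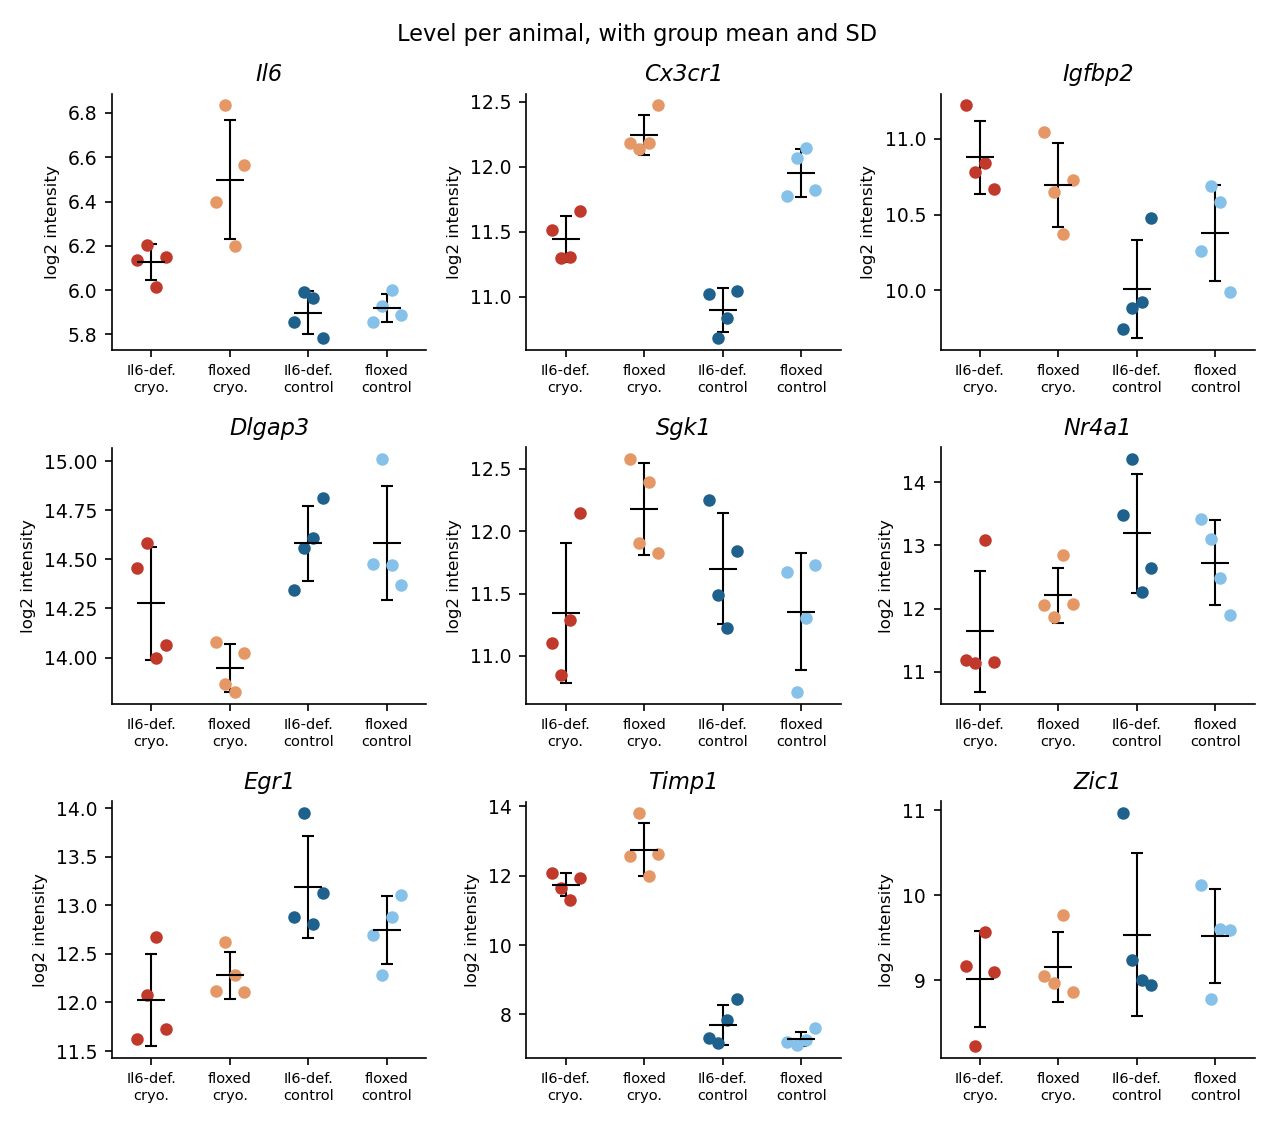
Log2 intensity of 9 genes in each of the 16 animals (points), with the mean and SD of each group of 4 (black); Il6-deficient cryolesioned, floxed cryolesioned, Il6-deficient control and floxed control animals run left to right. Cx3cr1 separates the genotypes in both states, Timp1 separates the states in both genotypes, and for Dlgap3, Igfbp2 and Nr4a1 the genotypes overlap within each state.

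Genes of blood vessels mostly had interactions above 0. Cldn5, the claudin that seals endothelial tight junctions, was the 1 of 25 endothelial and mural genes that passed an unadjusted p under 0.01 in the higher direction (0.177% of all features did). Its ratios were 0.71 and 0.17 on the lesion side and -0.51 and -0.59 on the control side, and its interaction was 0.99 ± 0.24 (SE; 95% interval 0.42 to 1.57). The separate-channel fit gave 0.35 and group mean levels 0.18. Of the 25 genes, 20 lay above 0 (51.5% of all features did), 14 had lesion-side ratios wholly above the control-side ratios (20.2% of all features) and 2 wholly below (18.7%), and the median was 0.32. That median was 0.03 in the separate-channel fit. Tagln, a smooth muscle protein, was the lowest at -0.54, and among the higher members, chosen after their values were seen, were the transporters Slco1c1 (0.76) and Slco1a4 (0.67) and the VEGF receptors Kdr (0.58) and Flt1 (0.56). Col6a1, a collagen of the vessel wall and the highest of the matrix and fibroblast list, had 1.19 ± 0.40, from 0.61 and 0.89 on the lesion side and -0.60 and -0.29 on the control side. The summed level of the 25 genes was 14.96 to 15.32 in Il6-deficient cryolesioned, 15.02 to 15.39 in floxed cryolesioned, 15.09 to 15.22 in Il6-deficient control and 15.03 to 15.14 in floxed control animals.

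**Figure D4:**
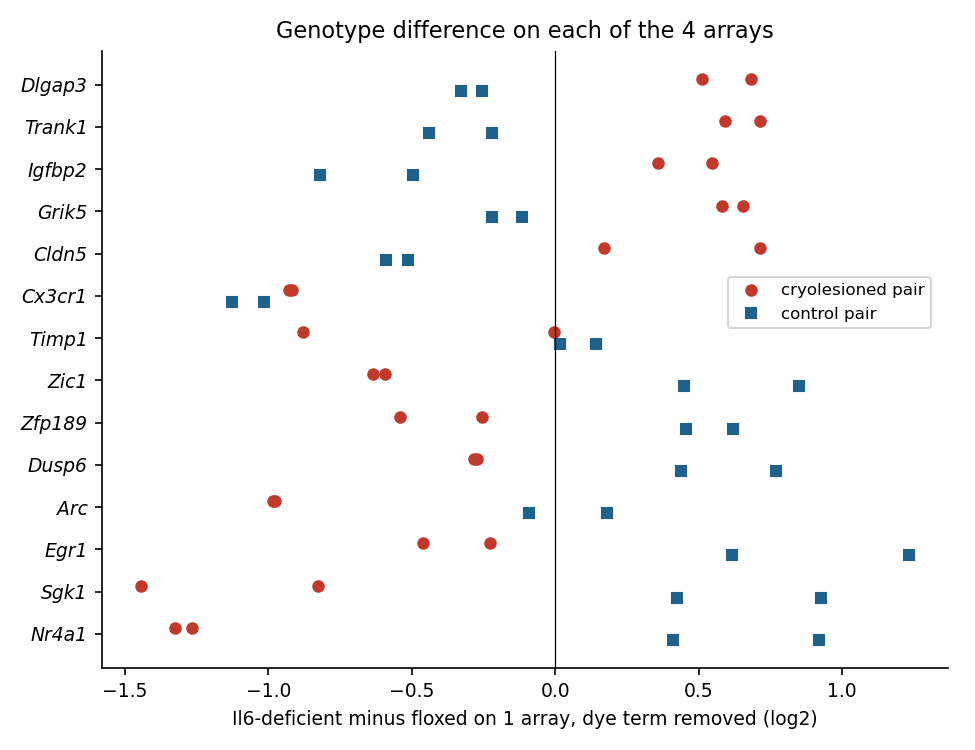
Log2 ratio of Il6-deficient over floxed on each of the 4 arrays that carry the interaction, with the dye term removed; red circles are the cryolesioned pairs and blue squares the control pairs. For Dlgap3, Trank1, Igfbp2, Grik5 and Cldn5 the cryolesioned pairs lie above 0 and the control pairs below, for Nr4a1, Sgk1, Egr1, Dusp6, Zfp189 and Zic1 the reverse, and for Cx3cr1 all 4 ratios lie near -1.

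Homeostatic microglia genes all had interactions above 0, from 0.03 (Gpr34) to 0.56 ± 0.37 (P2ry13, a purine receptor), with a median of 0.26. They numbered 20 of 20 tested, against 51.5% of all features above 0, and for 11 the lesion-side ratios lay wholly above the control-side ratios, against 20.2% of all features; 0 were called. Their summed level was 16.98 to 17.40 in Il6-deficient cryolesioned, 16.96 to 17.28 in floxed cryolesioned, 17.18 to 17.32 in Il6-deficient control and 17.13 to 17.26 in floxed control animals. Interferon-inducible GTPases, which act against intracellular microbes, had a median of 0.37, with 13 of 13 above 0 and 9 wholly above (20.2% of all features), from 0.07 (Ifi47) to 0.54 (Tgtp2). For this list the direction did not hold throughout, since the median was -0.01 in the separate-channel fit. Homeostatic astrocyte genes had a median of 0.27, with 17 of 20 above 0 (51.5% of all features), and were led by Slc1a3, a glutamate transporter, at 0.67 ± 0.27. The median of this list was 0.23 in the separate-channel fit and 0.007 without control-side array 2.

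In the lower direction, striatal neuron markers had the lowest median of the 43 lists (-0.62), with 14 of 15 below 0. Penk, which encodes proenkephalin, was their lowest at -1.44 ± 1.42, and Ppp1r1b (DARPP-32) their highest at 0.72. The Penk ratios were -2.01 and -2.70 on the lesion side and -1.98 and 0.17 on the control side, so the control-side arrays differed by more than 2 log2 units. The summed level of these markers, which cortex should hold little of, was 15.19 and 14.96 in Il6-deficient cryolesioned animals 1 and 2 against 16.78 and 16.73 in animals 3 and 4 of that group. It was 14.81 to 16.47 in floxed cryolesioned, 15.62 to 16.13 in Il6-deficient control and 16.05 to 16.99 in floxed control animals, and no marker was below background throughout a group. The median turned to 0.44 in the separate-channel fit. The part of these markers in the other interactions was not tested.

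Myelin genes had a median of -0.38, with 17 of 18 below 0, 10 wholly below (18.7% of all features) and 0 called. Mbp, the main myelin basic protein, had the lowest value at -0.62, and Ermn the highest at 0.63. In the separate-channel fit the myelin median was -0.08. Cell division genes had a median of -0.24, with 21 of 24 below 0 and 16 wholly below (18.7% of all features). Their lowest was Rrm2, which makes deoxynucleotides, at -0.58, and their highest was Ccnd1 (cyclin D1) at 0.38. In the separate-channel fit this median was 0.02. Heat shock genes had a median of -0.31, led by Hspa1a at -0.90, and the sides of Hspa1a overlapped.

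**Figure D5:**
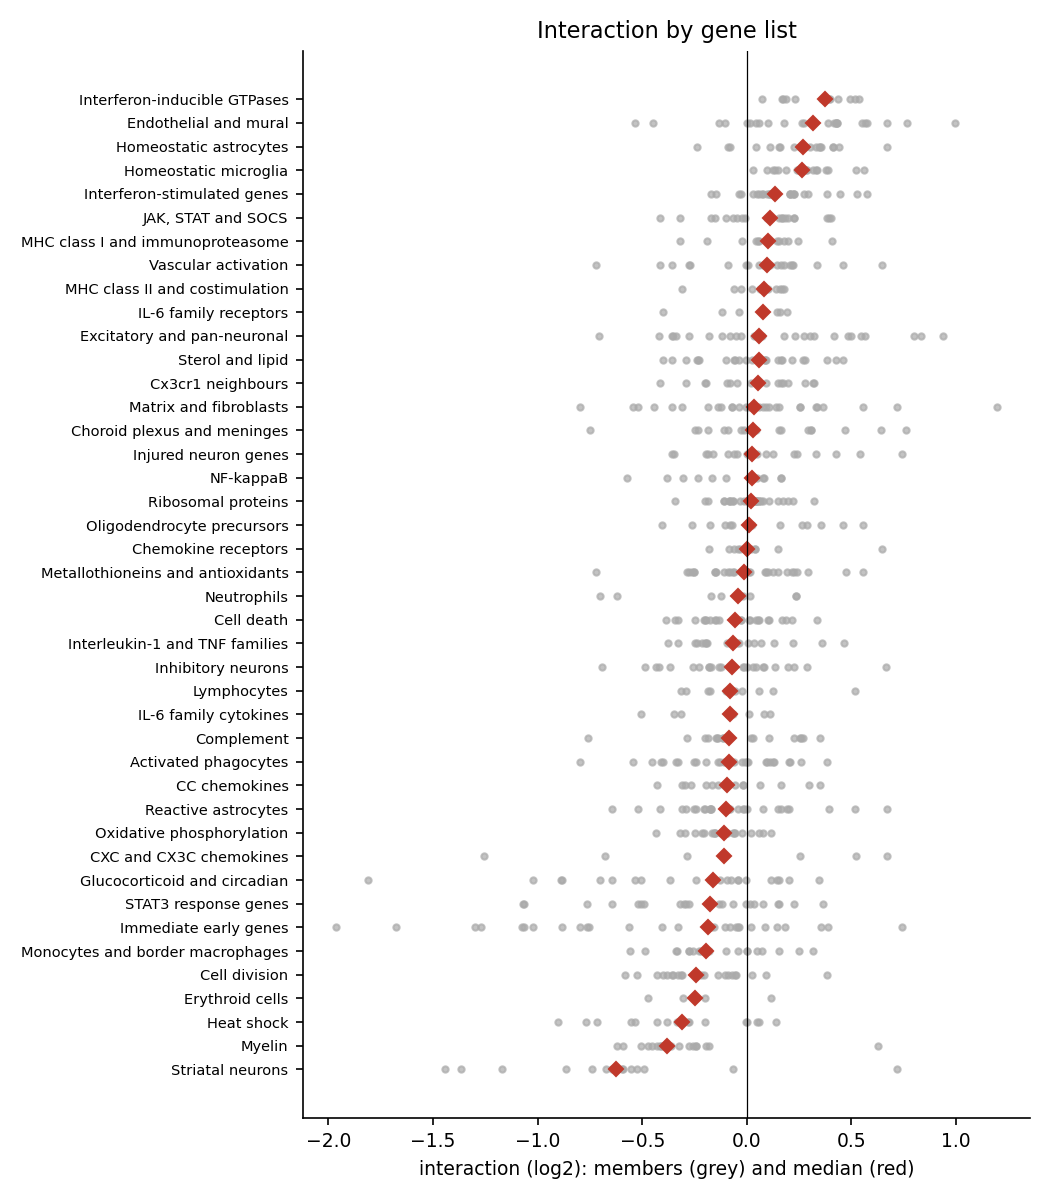
Interaction (log2) of every tested member (grey) and median (red diamond) of the gene lists other than the sex-linked one, ordered by median. Medians run from -0.62 for striatal neuron markers to 0.37 for interferon-inducible GTPases, and most lists have members on both sides of 0.

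Other inflammatory lists had smaller medians in the loop fit. CC chemokines had a median of -0.10 over 14 genes, CXC and CX3C chemokines -0.11 over 7, the interleukin-1 and TNF families -0.07 over 19 and complement -0.09 over 19. Within complement C3, the central component, was lowest at -0.76, and C1qa, the microglial recognition subunit, highest at 0.35. Reactive astrocyte genes had a median of -0.10 over 28 genes, 19 of them below 0. In the separate-channel fit the median was -0.44 for CC chemokines and -0.37 for reactive astrocyte genes. Monocyte and border macrophage genes had -0.19 over 20, with F13a1, a transglutaminase of macrophages, lowest at -0.56. The summed level of that list was 14.63 to 14.90 in Il6-deficient cryolesioned and 14.81 to 15.42 in floxed cryolesioned animals, against 13.73 to 14.12 in Il6-deficient control and 13.91 to 14.03 in floxed control animals. MHC class I genes had 0.10 and class II genes 0.08. In each of these lists 0 members were called and 0 passed an unadjusted p under 0.01.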

How the data were processed

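The authors deposited scanner files of Agilent Feature Extraction 10.7.3.1, per the file headers, with median spot and background intensity in both channels, not normalized; probe coordinates were not used. A log10 ratio of processed intensities, also in the deposited files, served only to check scale and direction of the authors' table of log2 ratios, whose normalization the sources used here do not state. That table follows log2 red over green, with column medians from -0.00451 to 0.00499.

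Median signals were background-corrected by normexp (offset 50) and loess-normalized within arrays, without control spots and outlier flags. Probes well above background in at least 4 of 16 channels were kept (37352 of 56605), and the brightest probe of each gene was used. Of all probes 32994 were named through RefSeq accessions (GRCm38.p6). Of the features tested, 4 lacked a value on an array. Ratios were fitted with limma 3.58.1 in R 4.3.3 (lmFit, eBayes) with 3 group coefficients and a dye intercept (4 residual and 2.95 prior degrees of freedom), and were tested on simulated data. P-values were adjusted by Benjamini-Hochberg. Levels per animal are log2 intensities of a channel, Aquantile-normalized after loess. The number of arrays limits the precision.

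The members and the 43 gene lists were chosen with earlier results of these data known. Named were the 10 genes with the smallest unadjusted p in each direction, 11 pathway genes, the extremes of each list and members past an unadjusted p of 0.01, and the 10 largest cryolesion rises and 5 falls. Alternatives covered background, normalization, filter, probe choice, dye, array weights, variance moderation, sex, separate channels and leaving out each array. Same-numbered animals on different arrays had correlations from -0.251 to 0.533 (median 0.0623), with 9 of 20 over 0.1. Animals with other numbers on different arrays had -0.407 to 0.301 (median -0.0168), with 20 of 68 over 0.1. The loop fit used no replicate block, and a pairing by replicate number was not tested.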

Additional observations from a re-analysis of the deposited data

Results flagged for a closer look

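In 172 groups of 4 animals (43 genes), 11 held an animal far from the other 3; chance flags about 1 group in 20. Among genes with leading interactions, Il6-deficient control 1 stood high for Zic1 (10.97), Otog (6.864) and Dennd1b (7.467), floxed control 2 for Dlgap3 (15.01) and Il6-deficient control 4 for Reep6 (10.85), whereas floxed cryolesioned animal 4 stood low for Grik5 (11.19). Among pathway genes, Il6-deficient control 1 stood low for Osmr (7.361) and floxed cryolesioned animal 4 high for Cx3cr1 (12.47). Of the cryolesion genes, Il6-deficient control 2 was low for Cxcl10 (6.096), and floxed cryolesioned animal 3 was high for Plk5 (10.45) and Frzb (7.931), on log2 intensity. All of these animals except Il6-deficient control 4 are on arrays that carry the interaction.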

How the results depend on the processing

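Across 24 alternatives the interaction was called for 0 features in 23 and for 1 without control-side array 2, an unnamed probe at 5.19 ± 0.26 (adjusted p = 0.0221, limma) against 0.25 ± 2.66 as reported; leaving out 1 array at a time gave 0 to 1. Features past an unadjusted p of 0.01 (155 as reported) numbered 318 without the filter, 76 without a dye intercept and 418 with array weights. Leaving out 1 array at a time gave 45 to 553, with 45 without lesion-side array 2, 87 without deficient-lesion-side array 2, 95 without floxed-lesion-side array 1, 271 without deficient-lesion-side array 1 and 553 without control-side array 2. The separate-channel fit gave 126 such features, of which 14 are among the 155, and 293 with sex as a covariate, an alternative chosen after seeing the data. With the replicate block the separate-channel fit called 0 and gave 213. Median centring gave 4 higher of 111, against 52 of 155 as reported; array weights gave 199 of 418, and no dye intercept 38 of 76. Of the 3492 cryolesion features, 1870 had an interval within 1 log2 unit with the scanner software's processed signals. Il6 was -0.88 with those signals, -0.56 in the authors' table and -0.52 without lesion-side array 1; leaving out 1 array at a time gave -0.52 to -0.12 for it. The causes were not tested. Over the 24 alternatives Sgk1, Nr4a1, Egr1, Arc, Dusp6, Igfbp2, Dlgap3 and Cldn5 kept their direction and were called in none. In several alternatives the loop estimate could not change. These left out an array of weight 0 or the dye intercept, added sex to the loop fit, changed the variance moderation, or kept only the weighted arrays. The counts of kept signs include these settings, in which no sign could turn. Median interactions kept their sign in 24 for homeostatic microglia (0.06 to 0.34), endothelial and mural (0.01 to 0.43) and myelin genes (-0.74 to -0.02), in 23 for immediate early genes, 22 for cell division genes, 21 for interferon-inducible GTPases and 20 for striatal markers (-1.79 to 0.64). With 2 arrays a side, the 95% interval of a feature reached a median of 0.414 log2 units to either side as reported. The median SE changed with the background handling.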
